A study of Drosophila melanogaster with 3 samples.

Results

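The 93 genes described here encode the proteins of the cytosolic ribosome of Drosophila melanogaster. They were taken from the 13945 protein-coding genes that Ensembl release 115 places on the 6 chromosome arms, as every gene whose symbol starts with RpL or RpS, plus sta, which encodes a laminin-receptor-like protein of the small subunit. Genes of the mitochondrial ribosome, whose symbols start with mRp, were kept apart. By symbol 54 of the genes belong to the large subunit and 39 to the small subunit. The choice rests on names alone, and 5 symbols end in -like: RpL24-like and RpLP0-like resemble factors that act in ribosome assembly more than structural subunits.

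The study mapped DNA that co-precipitated with Sox100B, a group E Sox transcription factor that binds DNA through an HMG box. Whole embryos of mixed sex, collected at 6 to 16 h, came from a fly line in which Sox100B carries GFP at its C terminus, and chromatin had been sheared to 200 to 800 bp. All 3 libraries are labelled as biological replicates of this 1 genotype, so no condition was compared with another; the free-text notes speak of an input control where the antibody field names Sox100B, and the libraries were taken as immunoprecipitates. Such embryos hold many cell types, so a region present in more cells cannot be told apart from one bound more often in each cell.

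Ribosomal proteins are made in near-equal amounts, and in flies losing one of the gene copies often gives the Minute phenotype of slow development and thin bristles. Most of these genes are short, are transcribed at high rates and start within a run of pyrimidines, the TCT initiator, instead of the common initiator. Several also carry the binding sequence of DREF, TATCGATA, or Motif 1, GGTCACAC, the binding sequence of M1BP.

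The promoters below show what lies under the strongest regions and in the second copy of duplicated genes. They come from the Release 6 genome of RefSeq (dm6), are written 5′ to 3′ on the strand of the gene, and run from 130 bases before the annotated start to 30 bases from it. Capitals mark TATCGATA, GGTCACAC, or CTTT where it begins within 5 bases of the start. These first 5 have the strongest regions among genes whose sequence is shown. RpLP0 is cut to 30 bases around its motif because a longer transcript runs through this stretch. Its start here lies 225 bp into the gene. The motif search below was set on the gene start, so the counts of GGTCACAC leave this match out.
RpS27 (chr3R:25247485-25247644, minus strand): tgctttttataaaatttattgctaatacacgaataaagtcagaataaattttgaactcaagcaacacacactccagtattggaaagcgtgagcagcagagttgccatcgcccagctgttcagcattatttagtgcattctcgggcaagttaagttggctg
RpL34a (chr3R:26059238-26059397, minus strand): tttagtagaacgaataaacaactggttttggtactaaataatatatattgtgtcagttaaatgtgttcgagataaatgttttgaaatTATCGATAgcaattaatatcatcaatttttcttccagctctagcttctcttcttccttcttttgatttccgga
RpS10b (chrX:19597901-19598060, plus strand): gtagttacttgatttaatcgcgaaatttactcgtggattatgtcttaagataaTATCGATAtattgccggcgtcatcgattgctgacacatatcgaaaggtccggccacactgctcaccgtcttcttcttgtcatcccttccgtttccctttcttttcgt
RpLP0 (chr3L:22076054-22076083, plus strand): gccatcgaagcGGTCACACtgggtgccgcc
RpL28 (chr3L:3222931-3223090, minus strand): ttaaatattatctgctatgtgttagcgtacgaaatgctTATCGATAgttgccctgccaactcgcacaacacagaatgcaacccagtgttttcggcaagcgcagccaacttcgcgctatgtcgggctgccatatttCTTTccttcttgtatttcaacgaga
The next 4 complete 3 duplicated pairs, RpL34a with RpL34b, RpS10b with RpS10a, and RpS28b with RpS28a; in each pair only the first-named copy had a region in the authors' final list.
RpL34b (chr3R:9401197-9401356, minus strand): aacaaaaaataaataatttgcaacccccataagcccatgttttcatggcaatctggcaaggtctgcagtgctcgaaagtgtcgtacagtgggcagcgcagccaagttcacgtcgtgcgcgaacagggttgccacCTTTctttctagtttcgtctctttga
RpS10a (chr3R:27652630-27652789, plus strand): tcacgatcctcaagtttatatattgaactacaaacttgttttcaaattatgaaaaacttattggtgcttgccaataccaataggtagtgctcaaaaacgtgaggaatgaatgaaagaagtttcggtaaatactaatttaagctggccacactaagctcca
RpS28b (chrX:9554493-9554652, plus strand): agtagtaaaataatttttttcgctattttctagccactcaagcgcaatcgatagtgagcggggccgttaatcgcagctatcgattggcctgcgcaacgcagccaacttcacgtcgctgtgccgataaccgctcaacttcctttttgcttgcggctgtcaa
RpS28a (chr3R:30022619-30022778, minus strand): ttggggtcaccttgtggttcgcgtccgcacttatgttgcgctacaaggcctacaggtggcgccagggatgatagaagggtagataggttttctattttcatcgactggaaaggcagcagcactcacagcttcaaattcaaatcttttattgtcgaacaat
The DREF element begins at -43 bp from the start in RpL34a, at -77 bp in RpS10b and at -92 bp in RpL28. Neither RpS27 nor RpS28b holds a capitalised element in these windows.

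The authors deposited 1 list of 5683 regions that passed their irreproducible discovery rate (IDR) threshold, 1 list of 30000 regions from the pooled reads and 1 list of 30000 from each replicate. A gene counted as marked when a region had its summit inside the gene or in the 1 kb before it. Signal is on a scale that is not stated, so regions are given by rank within their list, rank 1 being the strongest. For the replicates the 5683 strongest regions, as many as in the IDR list, are called strong. The IDR regions were the 5683 strongest of the pooled list.

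Of the 93 ribosomal protein genes, 62 had an IDR region, or 66.7%, against 22.3% of all protein-coding genes. With the summit held to within 200 bp of an annotated transcription start site (TSS) the number was 61, or 65.6%, and the background fell to 8.52%. The genes are short, with a median length of 1318 bp against 2166 bp for all genes, and short genes offer less room for a summit. Among the 7125 genes of the same length range, 594 to 2572 bp, 12.8% had an IDR region. Strong regions marked 65 of the genes in replicate 1, 65 in replicate 2 and 72 in replicate 3, a mean of 67.3 ± 4.04 (SD, n = 3). The matching shares of all genes were 23.8%, 24.3% and 25.3%, so replicate 3 marked the most genes in both sets. Within 200 bp of a TSS the replicates gave 64, 63 and 70 genes, where 9.5%, 9.98% and 10.9% of all genes were marked. In every replicate the share of ribosomal protein genes was far above the share of all genes, by more than the replicates differed among themselves.

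**Figure D1:**
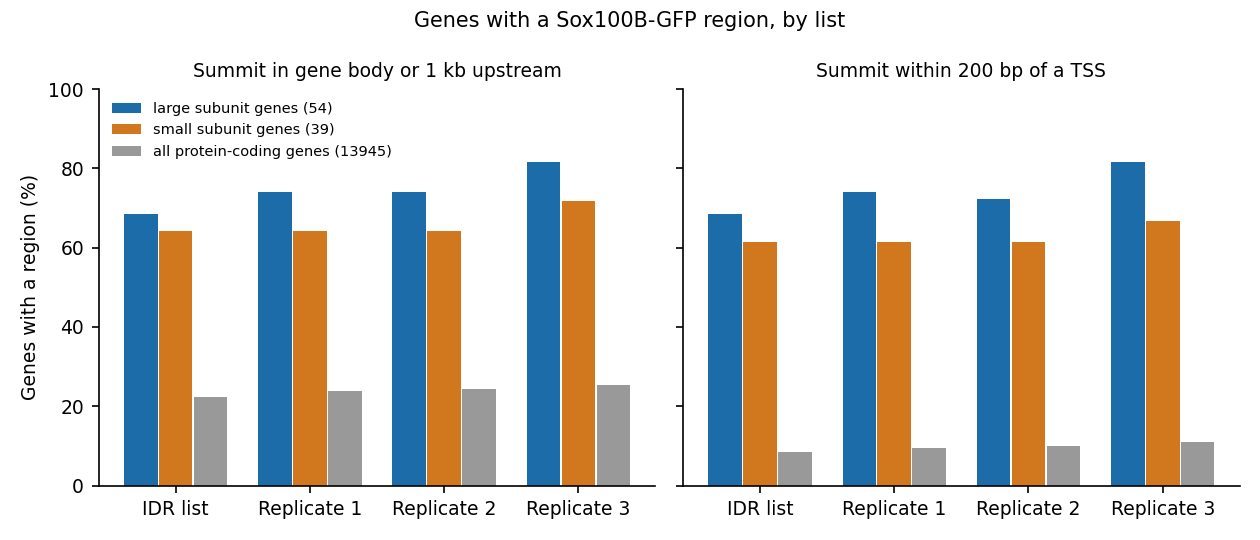
Share of genes (%) with a region in the IDR list and among the 5683 strongest regions of each replicate, for large subunit genes, small subunit genes and all protein-coding genes; bars are counts over genes and carry no error. On the left the summit lies in the gene body or up to 1 kb upstream, on the right within 200 bp of a TSS, where the grey bars of all genes fall to 8.52% in the IDR list and the bars of the ribosomal protein genes hardly move.

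Counting weaker regions raised the background more than the number of ribosomal protein genes. Any pooled region marked 72 of the 93 genes against 41.8% of all genes. Any of the 30000 regions marked 75, 82 and 81 of them in replicates 1, 2 and 3, against 47.4%, 48.7% and 49.8% of all genes. Strong regions in all 3 replicates were found for 61 ribosomal protein genes (65.6%) and for 19.3% of all genes.

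Both subunits were marked. The IDR list held 37 of 54 large subunit genes (68.5%) and 25 of 39 small subunit genes (64.1%), a difference of 4.42 percentage points. Strong regions marked 74.1%, 74.1% and 81.5% of the large subunit genes in replicates 1 to 3 and 64.1%, 64.1% and 71.8% of the small subunit genes. The difference over replicates was 9.88 ± 0.164 percentage points (SD, n = 3); the same genes enter each replicate, so this SD says how alike the libraries are and not how firmly the subunits differ. The median IDR rank was 1229 for the 37 large subunit genes and 1364 for the 25 small subunit genes, and the quartiles, 689 to 1971 and 806 to 2375, overlapped over most of their range.

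RpS27, a zinc-binding protein of the small subunit, had a region at IDR rank 181 and at 304, 224 and 96 in replicates 1, 2 and 3, with its summit 29 bp upstream of the TSS. RpL34a ranked 232, with 204, 307 and 170 in the replicates, and RpS10b ranked 281, with 366, 280 and 209. All 3 stayed at or above rank 366 of 30000 in each replicate.

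The stalk proteins recruit elongation factors to the large subunit. RpLP0, which anchors the stalk, ranked 360 in the IDR list and 550, 424 and 177 in the replicates. RpLP1 ranked 803, with 1538, 792 and 481, and RpLP2 ranked 1835, with 3422, 2018 and 1242. All 3 were thus marked in every replicate, with the anchor strongest. Each was weakest in replicate 1 and strongest in replicate 3. Replicate 3 also gave the strongest rank for 48 of the 62 ribosomal protein genes with an IDR region, so this is not particular to the stalk.

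Others among the 12 highest were RpL28 at IDR rank 382, RpL13 at 402, RpL32 at 455, RpS25 at 476, RpL19 at 500, RpL13A at 547 and RpL24 at 661. RpL32 is the gene long used as a reference transcript in fly work; its replicate ranks were 536, 629 and 228. RpL28 shared its region with eIF1, whose product helps select the start codon, and that region ranked 357, 467 and 308 in the replicates.

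Ribosomal protein genes were concentrated in the upper part of the IDR list without filling its very top. The median rank of their strongest region was 1296.5 (quartiles 759.5 to 2072.5), against 1772 over all 3106 genes with an IDR region. Of the 62 genes, 53 (85.5%) lay above the middle rank of the list, against 67.7% of the other marked genes. Among the 568 strongest lay 11 (17.7%), against 19.8% of the other genes. When only summits within 200 bp of a TSS were counted, the medians were 1229 for the ribosomal protein genes and 1995.5 for all genes.

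At the lower edge of the list stood RpS2 at rank 4373, RpL5 at 4415 and RpL38 at 5326. RpL5 carries 5S ribosomal RNA into the ribosome, and in the mouse Rpl38 is known for its effect on the translation of Hox messages. Just outside the list the pooled ranks were 6290 for RpS3, which lines the messenger RNA entry channel, 6702 for RpLP0-like and 7126 for RpL34b.

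Replicates ordered the 62 genes alike. Spearman's rho between their ranks was 0.895 for replicates 1 and 2, 0.888 for 1 and 3, and 0.922 for 2 and 3, across genes that share each library and are not replicates. The 62 genes were chosen through the IDR list, which favours regions alike in the replicates, so the choice itself favoured such agreement. The matching rho over all genes with an IDR region is not given here. The genes as a set stood higher in replicate 3: their median rank was 1713.5, 1556 and 1087 in replicates 1, 2 and 3. Over the 3069 genes that had an IDR region and a region in every replicate the medians were 1881, 1905 and 1855. Replicate 3 gave the strongest rank for 48 of the 62 genes (77.4%), against 36.1% of the 3069 genes. For the 716 other genes with an IDR summit within 200 bp of a TSS and one in each replicate the share was 43.3%. What set replicate 3 apart for these genes was not tested, and the number of reads behind the lists is unknown.

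Of the 5 largest spreads over replicates among the 62 genes with an IDR region, 4 ran from replicate 1 as the weakest to replicate 3 as the strongest. RpLP1, RpS27 and RpLP0 changed rank by factors of 3.20, 3.17 and 3.11 between the lowest and the highest replicate, and RpLP1 and RpLP0 both belong to the stalk. RpL22, at 2663, 1688 and 884, spread by 3.01 and followed the same order. RpS12, known from the competition between Minute and normal cells in fly tissue, spread by 2.87, with 1669, 3631 and 1264, and was weakest in replicate 2. The median factor was 1.78 over the 62 genes and 1.45 over the 3069 genes.

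**Figure D2:**
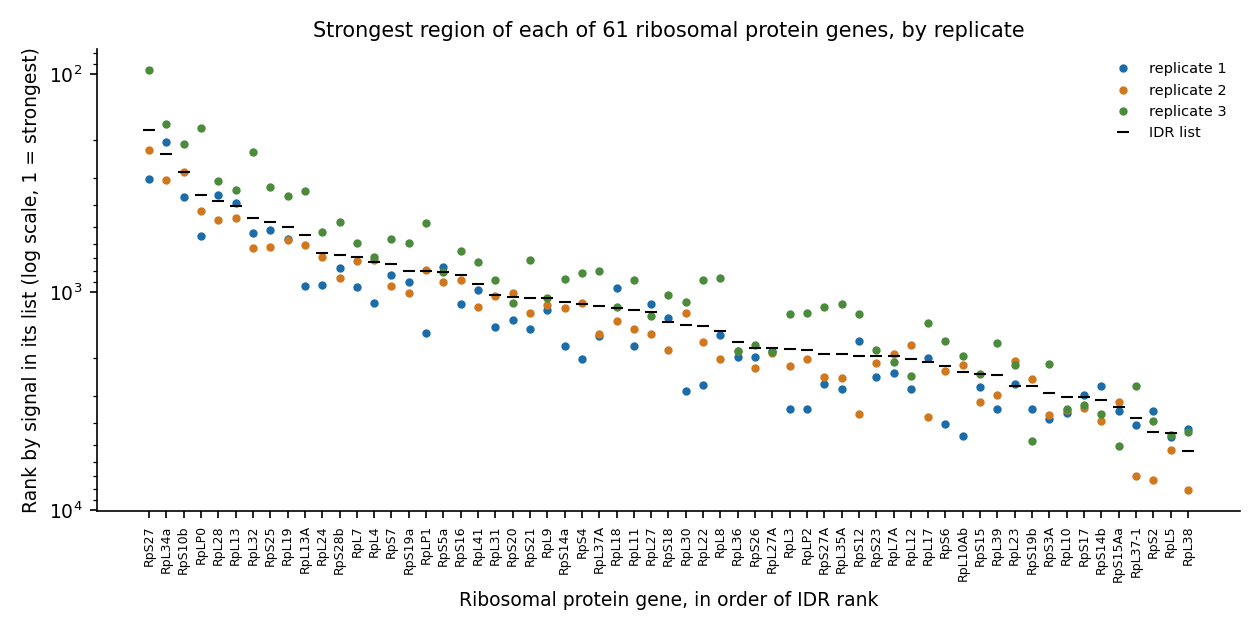
Rank by signal (log scale, strongest at the top) of the strongest region of 61 of the ribosomal protein genes with an IDR region, in the 3 replicate lists (dots) and the IDR list (dashes), genes ordered by IDR rank. Replicate 3 holds the strongest rank for most genes, and the order of the genes is close in all 3 lists. The genes were chosen through the IDR list, which itself favours regions alike in the replicates.

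Summits at these genes lay close to the annotated start. The IDR summit lay a median of 27 bp upstream of the nearest TSS, written -27 bp (quartiles -60.5 to -7), and 60 of the 62 strongest summits were within 200 bp of a TSS, or 96.8%. Of the 3044 other genes with an IDR region, 30.3% had their strongest summit that close. Even among genes with a summit within 200 bp the positions differed, at a median of -26.5 bp for the 60 ribosomal protein genes and -124 bp for the 923 other genes. Within 50 bp of the TSS lay 70.0% of the former and 11.4% of the latter. A summit in the windows of several genes was counted for each of them. The other genes thus include neighbours of ribosomal protein genes that share their region, such as Dref. How far this moves the median of the other genes was not tested. The replicates gave medians of -38, -27 and -34.5 bp. Their spread, 5.62 bp (SD, n = 3), was small beside the distance to the other genes; no test was run, since genes are not replicates.

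By position, 32 of the 62 genes had the summit from 0 to 50 bp upstream of the TSS and 12 had it over 50 and up to 100 bp upstream. A further 5 had it over 100 and up to 200 bp upstream and 11 had it 1 to 100 bp downstream. RpL27A had its summit on the annotated start base. RpL5, at 77 bp, had the summit furthest downstream.

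The remaining 2 genes were over 200 bp away, and both summits were nearer the TSS of another gene. RpL10Ab had its strongest summit at -329 bp, nearer CG11597, and a second IDR summit at -118 bp. RpS19b had its only IDR summit at -872 bp, nearer CG5854; its ranks were 3418, 2505 and 4804 in the replicates.

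**Figure D3:**
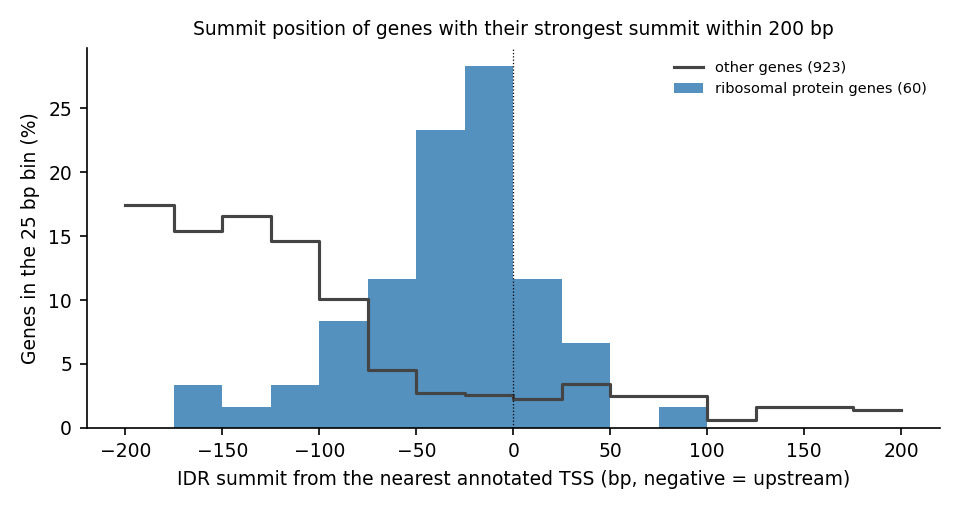
Share of genes (%) by the position of their strongest IDR summit, in bins of 25 bp from 200 bp upstream to 200 bp downstream of the nearest annotated TSS (dotted line at 0), for 60 ribosomal protein genes (bars) and 923 other genes (line). The bars peak in the 25 bp before the TSS at 28.3%, whereas the line is highest in the bin furthest upstream at 17.4%.

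Some of these regions cannot be given to the ribosomal protein gene alone. For 8 of the 62 genes the start of another gene lay within 200 bp of the summit. RpL13 and Dref, which encodes the DREF factor, shared 1 region at IDR rank 402 (392, 456 and 340 in the replicates), 21 bp upstream of the RpL13 start and 63 bp from the Dref start. The other neighbours were Ip259 at RpS27A, NaCP60E at RpL41, Ripalpha at RpL7, Nup37 at RpS27, CG3776 at RpL19, Trmt61 at RpL34a and CG17271 at RpS20, at 33 to 180 bp. Another start lay within 1 kb for 41 genes, whose median IDR rank was 1049, against 1835 for the 21 genes without one. The matching shares and ranks over other genes with an IDR region are not given here. Neither these counts nor the difference in rank can therefore be called particular to ribosomal protein genes.

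Of the 93 genes, 31 had no IDR region. Among them 10 had a weaker pooled region, 13 had no pooled region but a region in at least 1 replicate, and 8 had no region in any of the 5 lists. Those without any region included RpL36A, sta, RpS28a, RpL37-2, RpL22-like, RpL24-like and RpS28-like. RpL36A and sta are single genes for structural proteins, and the 5 named after them are second copies or -like genes. Since the lists hold only called regions, a gene with none has no measured level.

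Absence from the IDR list did not always mean a weak signal in the replicates. RpL34b ranked 490, 437 and 314, with summits at -133, -145 and -105 bp from its start, and RpL26, which sits beside the exit of the peptide tunnel, ranked 1958, 1615 and 1047. No pooled region overlapped either of these strong regions; the pooled regions that gave the 2 genes ranks of 7126 and 7234 lay elsewhere. Such gaps were present across the lists: of the strong regions shared by all replicates, 4197 as counted from replicate 1, 92 (2.19%) had no pooled region. RpL23A had no region in replicate 1 but ranked 1197 and 914 in replicates 2 and 3. RpL14 ranked 11063, 14239 and 554, so it was strong in replicate 3 only. In all, 11 of the 31 genes were strong in at least 1 replicate. The matching share over all genes without an IDR region is not given here, so this count cannot be called particular to ribosomal protein genes.

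Several ribosomal proteins of flies are encoded by 2 genes, and the second copy is often used in the germ line, as RpS5b and RpS19b are in the ovary and RpL22-like is in the testis. The set holds 9 such duplicated pairs and 6 pairs of a gene with its -like relative, 15 in all. In 12 pairs only 1 member had an IDR region, in 2 both had one, and in 1, RpS28a with RpS28-like, neither had one. The pairs hold 27 genes, since RpS28a, RpS28b and RpS28-like each enter more than 1 pair. Among the 66 genes outside pairs 47 had an IDR region. None of the 5 -like genes had one.

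In 7 of the 9 duplicated pairs only 1 copy was marked. RpS10b ranked 366, 280 and 209, whereas RpS10a had no region in replicate 1 and ranked 15107 and 23356 in replicates 2 and 3. RpS28b ranked 776, 865 and 476, and RpS28a had no region in any list. RpS5a ranked 765, 899 and 808, and RpS5b ranked 11283 and 12790 in replicates 1 and 2 with no region in replicate 3. Where RpS10a and RpS5b had a rank, it was weaker than every rank of the marked copy, and RpS28a had none to compare.

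RpL10Ab ranked 4591, 2158 and 1953, against a single region at 25617 in replicate 1 for RpL10Aa. RpS15Aa ranked 3502, 3187 and 5087, and RpS15Ab ranked 19089 and 23946 in replicates 1 and 2. RpL37-1 ranked 4047, 6940 and 2681, and RpL37-2 had no region. The unmarked copies were built differently: 5 of 7 had a single exon in the transcript compared, RpL10Aa, RpL37-2, RpS10a, RpS15Ab and RpS28a, while every marked copy of these pairs had at least 2. The coding sequences of RpS15Aa and RpS15Ab were 98.2% identical, but no source used here says how reads that match 2 places were treated.

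RpL34 was the pair in which the IDR list and the replicates parted. RpL34a was in the IDR list and RpL34b was not, yet both were strong in every replicate, at 204, 307 and 170 against 490, 437 and 314. Their proteins were 81.5% identical. The 2 promoters printed above differ in that RpL34a holds the DREF element and RpL34b holds CTTT at the start.

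Both copies had an IDR region in 2 pairs. RpS14a and RpS14b lie one after the other on the X chromosome, with starts at 7933742 and 7934898, and encode the same protein from coding sequences 97.8% identical. RpS14a ranked 1106 in the IDR list and 1760, 1183 and 867 in the replicates; RpS14b ranked 3113, with 2694, 3887 and 3629. RpS14a was the stronger in each replicate, but near-identical copies can share reads, so the split between them is uncertain. RpS19a ranked 800, with 896, 1006 and 592 in the replicates, and RpS19b ranked 2704 through the distant region described above.

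**Figure D4:**
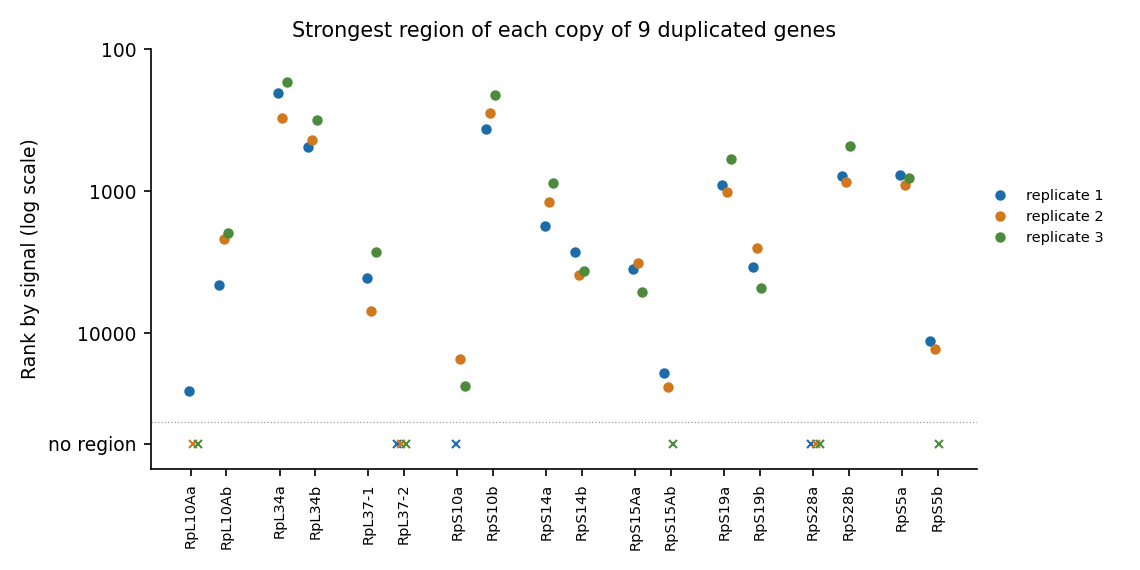
Rank by signal (log scale, strongest at the top) of the strongest region of each copy of the 9 duplicated genes in the 3 replicates; crosses below the dotted line stand for no region in that list. RpL34b lies near RpL34a in all replicates, whereas RpL37-2 and RpS28a have only crosses.

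Of the -like genes, RpL22-like, RpL24-like and RpS28-like had no region in any list. RpL7-like had 1 region, at rank 20586 in replicate 2. RpLP0-like ranked 4376, 21110 and 4997, so it was strong in 2 replicates. Their relatives RpL22, RpL24, RpL7, RpLP0 and RpS28b were all in the IDR list.

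Promoters were searched from 250 bases before to 50 after the gene start, on both strands, each motif counted on its own with overlaps allowed. TATCGATA was found in 28 of the 93 promoters (30.1%) and in 9.36% of all promoters of that length. GGTCACAC was found in 15 (16.1%) and in 7.70%. CTTT beginning within 5 bases of the start on the gene strand was found in 31 (33.3%) and in 5.64%. All 3 elements were thus more frequent at ribosomal protein genes than over all genes. The usual fly initiator, TCAGT, added after these results were seen, was found there in 1 promoter (1.08%) and in 11.2% of all promoters. At least 1 of the first 3 elements was present in 63.4% of ribosomal protein promoters and 20.9% of all. This combined share was 59.7% (37 of 62) in ribosomal protein genes with an IDR region and 71.0% (22 of 31) in those without. It was thus higher in the unmarked genes, a difference that was not tested.

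Taken one by one, the first 3 elements had similar shares in marked and unmarked ribosomal protein genes, a description for which no test was run. TATCGATA was present in 29.0% of the 62 genes with an IDR region and 32.3% of the 31 without, GGTCACAC in 16.1% of both, and CTTT at the start in 33.9% and 32.3%. The core of Sox binding sites, ACAATG or ACAAAG, was found in 27.4% of those with and 19.4% of those without an IDR region, against 31.3% of all promoters. On the strand of the gene alone the direction turned, with the Sox core in 19.4% of ribosomal protein promoters and 17.0% of all. The 3 others searched were GAGAG in 17.2% of ribosomal protein promoters and 29.7% of all, CAGCTG in 9.68% and 17.7%, and TATAAA in 48.4% and 45.8%. TATAAA also turned with the window: from 100 bases before to 50 after the start it was found in 12.9% and 23.9%. GAGAG fell to 8.60% and 18.04% in that window and to 7.53% and 16.7% on the strand of the gene alone. In mitochondrial ribosomal protein promoters CAGCTG reached 54.8%. A match here is a run of letters and not a bound site.

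Motif and summit lay within 60 bp of each other at most genes that had both. The 18 genes with TATCGATA and an IDR region had a median of 22 bp between the centre of the nearest match and the summit, and in 15 of them it was at most 60 bp; the largest distance was 372 bp. For GGTCACAC the median was 20 bp over 10 genes, 7 lay within 60 bp, and the largest distance was 218 bp. Both lie near the start in these genes, so the closeness is a description of position only.

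**Figure D5:**
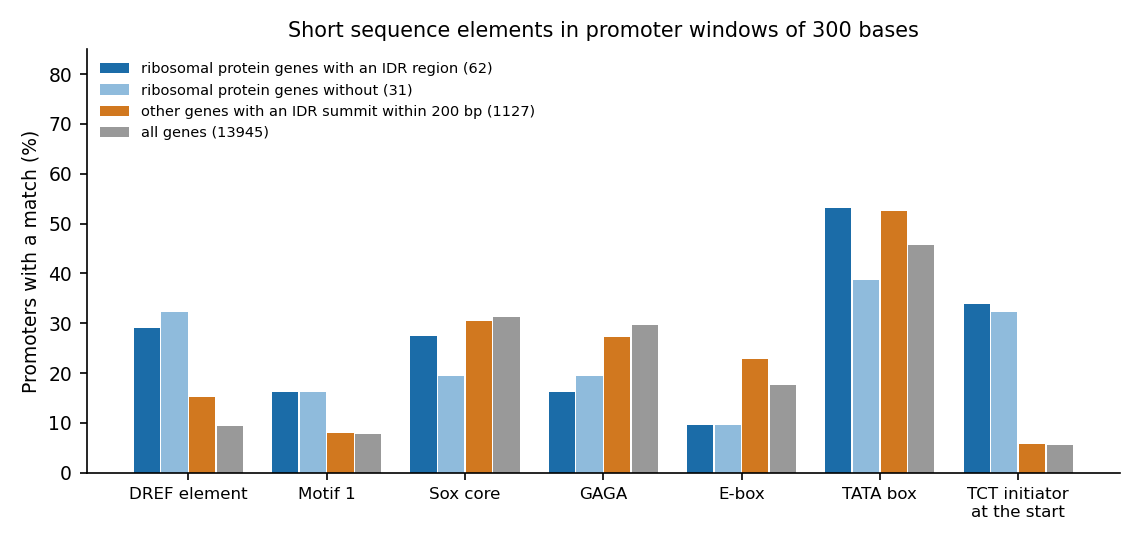
Share of promoter windows (%, 250 bases before to 50 after the gene start) with each element, for ribosomal protein genes with and without an IDR region, other genes with an IDR summit within 200 bp of a TSS, and all genes. The bars labelled TCT initiator count only CTTT beginning within 5 bases of the gene start. Those bars and the DREF element are near 30% in both ribosomal protein groups. The Sox core is at 27.4% and 19.4% against 31.3% of all genes.

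Other genes of the translation machinery were marked less often. Among mitochondrial ribosomal protein genes 24 of 73 (32.9%) had an IDR region, 17 of them within 200 bp of a TSS, with a median rank of 2119. Initiation and elongation factors had 13 of 52 (25%), 10 of them within 200 bp of a TSS, with a median rank of 1485. Their strongest were eIF2Bbeta at rank 4 and eIF4EHP at rank 11, with summits at -692 and -241 bp. Nearest the start were the summits of eEF2 at 0 bp, eEF5 at 20 bp and eEF1gamma at -40 bp. The replicate ranks of eEF1gamma were 379, 293 and 100. Of 15 ribosome biogenesis genes 4 had one. The background remained 22.3% of all genes, and no test was run between the lists.

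Among 12 listed regulators of ribosomal protein genes or of growth, 9 had an IDR region, where 22.3% of all genes had one; regulators were not matched to other genes by length. These included larp at rank 93, whose human relative LARP1 binds messages with a pyrimidine start, M1BP at 175, Mnt at 271, foxo at 357 and Dref at 402. Lower in the list were S6k at 2557, Myc at 3228, Xrp1 at 3602 and Max at 4903. Of the 12 regulators, 5 had an IDR summit within 200 bp of a TSS, against 8.52% of all genes.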

How the data were processed

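The deposited signal value, summit offset and −log10 q-value of each region were taken as the authors give them. Per the file headers, the 4 lists of 30000 were made as input to the IDR procedure and hold background beside peaks. No source used here gives the aligner, peak caller or IDR threshold. Read depth is unknown. The labels list a control experiment, not analysed here.

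Summits were assigned to genes of Ensembl release 115 on the dm6 assembly, and ranks were taken within each list. Overlap meant 1 bp or more. Copies were aligned globally with Biopython 1.88. Assignment, overlap and motif search were tested on simulated data with known answers. Genes named are the 12 strongest, all copies of duplicated genes, the stalk genes, sta, summits over 200 bp away, genes in no list, the 5 largest replicate spreads, and 3 genes on each side of the IDR limit; others were named after their values were seen. Some genes that this rule names are not reported here. Members and lists were chosen with earlier results of these data known. The work used matplotlib 3.10.9, SciPy 1.17.1, NumPy 2.4.6 and Python 3.11.15.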

Additional observations from a re-analysis of the deposited data

How the results depend on the processing

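The count of 62 ribosomal protein genes in the IDR list stayed between 53 and 63 under the 5 other assignments or stricter lists. It was between 59 and 62 when each replicate was left out. Leaving out a replicate here meant keeping the IDR regions that overlapped a strong region of both remaining replicates. The IDR list was not remade, so the replicate left out still shaped it. Pairs with 1 marked copy numbered 11 to 13. The large minus small subunit difference was 6.27 percentage points with summits within 1 kb of a TSS, 6.98 with the nearest TSS or within 200 bp, 9.83 with only the regions above the middle rank of the list, and 3.28 to 4.42 with a replicate left out. Ribosomal protein genes whose IDR region overlapped a strong region of every replicate fell from 58 of 62 to 36 when 50% of both regions had to overlap. No matching share over all genes is given here, so neither count is particular to these genes. The median summit position was -19.5 bp from the 5′ end of the gene. In replicate 1 the median rank was 1713.5. The background share was 12.8% among genes of the same length range. At the start of the canonical transcript CTTT was found in 45.2% of ribosomal protein genes and 5.72% of all genes. That setting was added after seeing the data, as were TCAGT, the 200 bp limit in replicates and leaving out -like genes. TATAAA and the Sox core fell to 12.9% and 8.60% in the window from 100 bases before the start, with all genes at 23.9% and 16.2%. The causes were not tested. With 1 group of 3 libraries, unknown depth and no analysed control, neither the level at unmarked genes nor differences below the lists' limits can be given. No paired analysis was possible because there is only 1 group.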

Other observations

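Of the 62 ribosomal protein genes with an IDR region, 18 had 2 such regions and 44 had 1. The matching share over all genes is not given here. The 2 summits lay a median of 202.5 bp apart, and in 17 of 18 genes the distance was 150 to 250 bp. In the whole IDR list the smallest distance between summits was 199 bp, and 54.0% of the 832 distances up to 1 kb fell in that range, with a median of 218 bp. The list-wide distances are between adjacent summits anywhere on an arm, whereas the 18 lie within 1 gene window, so the 2 sets are unlike. What sets the spacing was not tested. The strongest regions of the 62 ribosomal protein genes were 345.5 bp wide at the median, against 464 bp over all 5683 regions of the list. In the whole list 464 bp was both the median and the upper quartile. Widths were not compared at like ranks, so the difference cannot be called particular to these genes.

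By chromosome arm, an IDR region was present at 13 of 15 ribosomal protein genes on X, 13 of 19 on 2L, 14 of 21 on 2R, 9 of 14 on 3L and 12 of 23 on 3R. The shares of all genes on these arms were 23.2%, 23.6%, 18.7%, 24.6% and 21.6% in the same order. RpS3A, the single gene of the set on chromosome 4, had its region at rank 2898.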
